A study of Mus musculus with 20 samples.

Results

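Mucin genes were examined in the cecum of C57BL/6 mice fed raw potato starch (RPS). The 6 genes are Muc1, Muc2, Muc3a, Muc4, Muc13, and Muc20, and they were picked by symbol from the 19887 genes of the count table. The choice was made with earlier results of these data known. All 6 were in the table and all passed the filter on low counts. The mice were put on the Total Western Diet (TWD), a rodent diet built to resemble American nutrient intake, at 3 weeks of age. Starch was added once 6 weeks had passed, at 2, 5, or 10% of the TWD, while mice on 0% RPS had none added. These diets lasted 3 weeks, and the table holds 5 mice on each of the 4. All groups therefore share the TWD, and there was no group on a standard chow. RNA came from pieces of whole cecum, so fewer cells of a type and less RNA per cell cannot be told apart. The question put to these genes was whether and at which dose RPS changed the RNA of the mucus layer and of the mucins on the cell surface.

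Mucins are long proteins whose central part is built of repeats rich in serine, threonine, and proline, to which chains of sugars are attached. Goblet cells secrete MUC2, which forms the gel that keeps gut bacteria away from the epithelium. The transmembrane mucins, such as MUC1, MUC3, MUC4, MUC13, and MUC20, stay anchored in the apical membrane and form the glycocalyx, and several of them carry domains through which they bind growth factor receptors. Resistant starch is fermented by cecal bacteria to short-chain fatty acids, and both bacteria and these acids are known to act on goblet cells and on surface epithelial cells.

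The 6 genes lie at 4 places in the genome (GRCm39, GENCODE release M39). Muc1 is at chr3:89136354-89140688 and Muc2 at chr7:141276583-141308430, both on the plus strand. Muc3a is at chr5:137243270-137246852 on the minus strand, in a row of mucin genes in which Muc12 ends 1055 bases before it and Muc17 lies 814 bases before Muc12. Chromosome 16 holds 3 of the genes. Muc4 (chr16:32555015-32602754, plus strand) and Muc20 (chr16:32597793-32617831, minus strand) overlap and share 381 bases of exons, which is 9.4% of the exon sequence of Muc20. Muc13 (chr16:33614407-33640304, plus strand) lies 996575 bases beyond Muc20.

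The repeats that define mucins bear on the measurement, because a read of 50 bases that falls inside one can match several places of its own gene. Of the 50-base windows in the exons, 24.15% were repeated within Muc2, 17.16% within Muc13, 13.3% within Muc4, and 1.39% within Muc1, whereas none was repeated within Muc3a or Muc20. These shares cover annotated exons only. Those of Muc3a sum to only 1887 bases, so a repeat outside them would not have been seen. No window was shared between the 13 genes of the table listed as mucins except 234 windows shared by Muc4 and Muc20, on opposite strands. The windows with the most copies are shown here in lower case, 5′ to 3′, as examples of what these genes encode. Each lies in a coding exon of the plus strand and was read from the GRCm39 genome.
Muc2 (chr7:141291991-141292040): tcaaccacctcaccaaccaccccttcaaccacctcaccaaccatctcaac
Muc4 (chr16:32570922-32570971): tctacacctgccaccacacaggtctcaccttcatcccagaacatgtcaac
Muc13 (chr16:33619400-33619449): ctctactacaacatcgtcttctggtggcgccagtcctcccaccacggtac
The Muc2 window occurs 18 times in an exon of 7029 bases, most often 105 bases apart. The Muc4 window occurs 8 times in an exon of 8484 bases, most often 372 bases apart, and the Muc13 window occurs 6 times in an exon of 645 bases, 81 bases apart. How reads that match several places were counted is not given in the sources used here, so levels of Muc2, Muc4, and Muc13 are less certain than differences between mice, which were all counted alike.

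Total counts per mouse were between 14967798 and 42687283, so 3 counts, the least taken as detection, were equal to 0.20 CPM in the shallowest one, for counting error only. CPM are counts divided by library size, corrected by edgeR's TMM method. Libraries of 3 mice stood apart by their share of mitochondrial counts, which was 13 to 15.4% in mouse 5 on 0% RPS, mouse 3 on 2% RPS, and mouse 4 on 5% RPS and 9.0 to 11.5% in the other 17. No mouse on 10% RPS was among them. The epithelial markers of the cecum were all detected, and the 9 genes of that list (such as Epcam, Cdh1, and Vil1) summed to between 11575 and 17996 CPM in every mouse. None of the 14 genes of mucus partners and goblet cells was at 0 in all mice.

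The 6 genes covered a wide range of levels. Together they held 0.331 to 0.660% of the counts of a library, and Muc2 and Muc13 made up 93.7% of that. With 0% RPS, the level per kb of annotated exons was 605 ± 96.8 CPM per kb for Muc13 (SD, n = 5), 167 ± 31.0 for Muc2, 56.4 ± 8.47 for Muc3a, and 5.82 ± 1.27 for Muc4. It was 0.303 ± 0.0958 CPM per kb for Muc1 and 0.106 ± 0.0283 for Muc20. No neighbours in this order of 6 overlapped among the 5 mice. Muc1 had 11 to 46 counts per mouse and Muc20 had 7 to 38. The annotated exons of Muc3a sum to 1887 bases in 7 blocks, and its place in the order rests on that length. Among the other mucin genes in the table, Muc17, a transmembrane mucin of the brush border formerly named Muc3, came between Muc13 and Muc2 with 293 ± 27.8 CPM per kb. Of its 50-base windows 46.35% were repeated within the gene, more than in Muc2, so its level is uncertain in the same way. Of 12 other mucin genes looked for by symbol, 7 were found in the table. Muc5ac, Muc5b, Muc15, Muc19, and Muc21 were not among those 7 and were not analysed here.

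**Figure D1:**
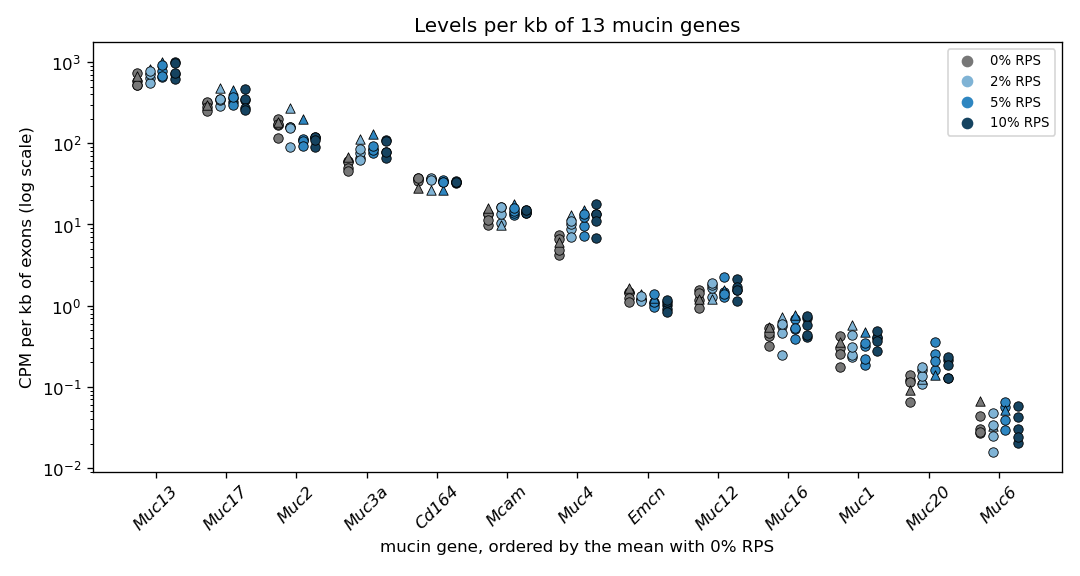
Levels of 13 genes listed as mucins in CPM per kb of annotated exons on a log axis, with 1 point per mouse (n = 5 per diet), colored by diet; triangles are the 3 libraries of highest mitochondrial share. Muc13 leads with a mean of 605 CPM per kb on 0% RPS, while Muc1 and Muc20 lie below 1 in every mouse.

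Muc4 was upregulated by 10% RPS. MUC4 is a large transmembrane mucin with domains that can bind the receptor ERBB2. From mouse 1 to mouse 5, Muc4 was at 94.0, 83.9, 54.4, 61.6, and 77.3 CPM with 0% RPS. It was at 112, 89.0, 168, 129, and 141 CPM with 2% RPS and at 123, 157, 91.2, 192, and 171 CPM with 5% RPS. With 10% RPS it was at 170, 227, 171, 87.3, and 141 CPM. On every RPS diet, 4 of the 5 mice were above the highest mouse on 0% RPS and 1 was within the range of that group. The log2 fold change against 0% RPS was 0.79 (SE 0.24) with 2%, 0.99 (SE 0.24) with 5%, and 1.10 (SE 0.24) with 10% RPS, the last a 2.15-fold increase. Adjusted p-values over all genes (edgeR's quasi-likelihood test, Benjamini-Hochberg) were 0.712, 0.0707, and 0.0275, so that the change with 10% RPS passed the threshold of an adjusted p of at most 0.05 and a fold change of at least 1.5. The exact permutation p was 0.0159 at each dose (two-sided, unadjusted, 1 of 18 such tests over 6 genes and 3 doses, smallest possible p 0.00794).

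The Muc4 call lies close to the threshold. It was lost without mouse 3, 4, or 5 on 0% RPS (adjusted p 0.0621, 0.07, and 0.06) and without mouse 1, 2, or 3 on 10% RPS (0.0788, 0.0622, and 0.0892), while the fold change stayed between 0.94 and 1.26 on the log2 scale. Without mouse 4 on 10% RPS, the one within the range of the control group, the adjusted p was 0.00645. DESeq2's Wald test called Muc4 with 10% RPS (adjusted p 0.000548) and also with 5% RPS (adjusted p 0.00465), and a fit of only the 2 diets gave an adjusted p of 0.0567.

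**Figure D2:**
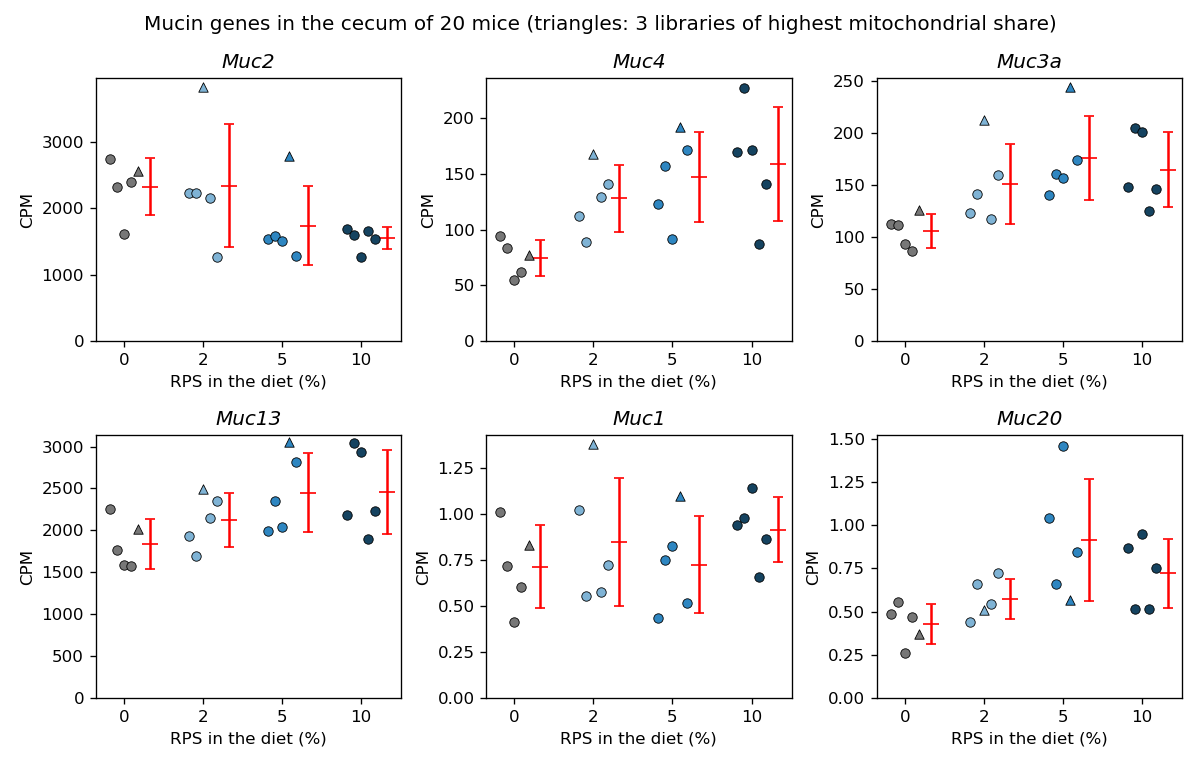
CPM of the 6 mucin genes against the percentage of RPS in the diet, with 1 point per mouse, the mean and SD (n = 5) in red, and the 3 libraries of highest mitochondrial share as triangles. Muc4, Muc3a, and Muc13 have higher means on each RPS diet than on 0% RPS, and Muc2 has its lowest mean, 1548 CPM, on 10% RPS.

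Muc3a, another transmembrane mucin, had the next lowest adjusted p with 10% RPS but passed the threshold at no dose. It was at 113, 112, 93.3, 87.1, and 126 CPM with 0% RPS and at 123, 142, 213, 118, and 160 CPM with 2% RPS. With 5% RPS it was at 141, 161, 157, 245, and 174 CPM, so all 5 mice were above every mouse on 0% RPS. With 10% RPS it was at 148, 205, 201, 125, and 146 CPM, and 4 of 5 mice were above that group. Estimated log2 fold changes were 0.51 (SE 0.18, adjusted p 0.815) with 2%, 0.72 (SE 0.18, adjusted p 0.0744) with 5%, and 0.63 (SE 0.18, adjusted p 0.0671) with 10% RPS (edgeR). DESeq2's Wald test called it with 5% (adjusted p 0.0109) and 10% RPS (adjusted p 0.0208). The paper used DESeq2 with the same thresholds and names Muc3a among the upregulated genes of the cecum. In edgeR it was also called with 10% RPS when mouse 4 on 10% RPS was left out (adjusted p 0.0361), and with 5% RPS when mouse 1 on 5% RPS was left out (adjusted p 0.0493). The exact permutation p was 0.00794 for 5% RPS, the smallest that the design allows.

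Muc13, the mucin gene with the highest level per kb, was not past the threshold at any dose. MUC13 is a short transmembrane mucin of the surface of intestinal cells. It was at 1570 to 2252 CPM with 0% RPS, with a median of 1762, and at 1693 to 2489 CPM with 2% RPS. It was at 1988 to 3057 CPM with 5% RPS, with 3 of 5 mice above the control range, and at 1898 to 3044 CPM with 10% RPS, with 2 of 5 mice above it. Its log2 differences from 0% RPS were 0.21 (SE 0.15), 0.41 (SE 0.15), and 0.42 (SE 0.15) in order of dose, with adjusted p-values of 0.918, 0.223, and 0.148 (edgeR). The groups overlapped at every dose, and neither DESeq2 nor any fit with 1 mouse left out called this gene.

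Muc2, the gel-forming mucin of goblet cells, was the only one of the 6 with an estimate below 0 at 5 and 10% RPS. It was at 2738, 2326, 1607, 2400, and 2555 CPM with 0% RPS and at 2232, 2224, 3819, 2151, and 1264 CPM with 2% RPS. With 5% RPS it was at 1535, 1581, 1507, 2785, and 1284 CPM, and 4 of the 5 mice were below the lowest control. With 10% RPS it was at 1691, 1601, 1264, 1652, and 1533 CPM, which is a narrow range in which 3 mice were below the lowest control and the other two were within the control range. In order of dose, the log2 fold change was 0.01 (SE 0.23), -0.42 (SE 0.23), and -0.59 (SE 0.23). The adjusted p was 0.999, 0.456, and 0.172 (edgeR), so the lower level did not pass the threshold. The unadjusted p for 10% RPS was 0.0196 in edgeR and the exact permutation p was 0.0238. The highest Muc2 values on 2% and 5% RPS came from mice 3 and 4, which are libraries of high mitochondrial share.

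The remaining 2 genes had few counts. Muc20, a small transmembrane mucin that can bind the receptor MET, was at 0.263 to 0.557 CPM with 0% RPS and at 0.438 to 0.722 CPM with 2% RPS. It was at 0.566 to 1.46 CPM with 5% RPS, where all 5 mice were above every control mouse, and at 0.516 to 0.948 CPM with 10% RPS. In order of dose, its estimates were 0.43 (SE 0.29), 1.06 (SE 0.29), and 0.74 (SE 0.29) on the log2 scale, with adjusted p-values of 0.903, 0.095, and 0.17 (edgeR), and DESeq2 did not call it. Since Muc20 shares exon sequence with the opposite strand of Muc4, which had 77413 counts over all mice against 382 for Muc20, and since the strand setting of the counting is not given, reads of Muc4 among those of Muc20 were not tested. Muc1, a signaling transmembrane mucin of many epithelia, was at 0.413 to 1.01 CPM with 0% RPS and at 0.660 to 1.14 CPM with 10% RPS, and its log2 fold change was 0.24 (SE 0.31), 0.01 (SE 0.31), and 0.36 (SE 0.31). Its adjusted p was 0.55 or above at every dose (edgeR), and no alternative fit called it.

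**Figure D3:**
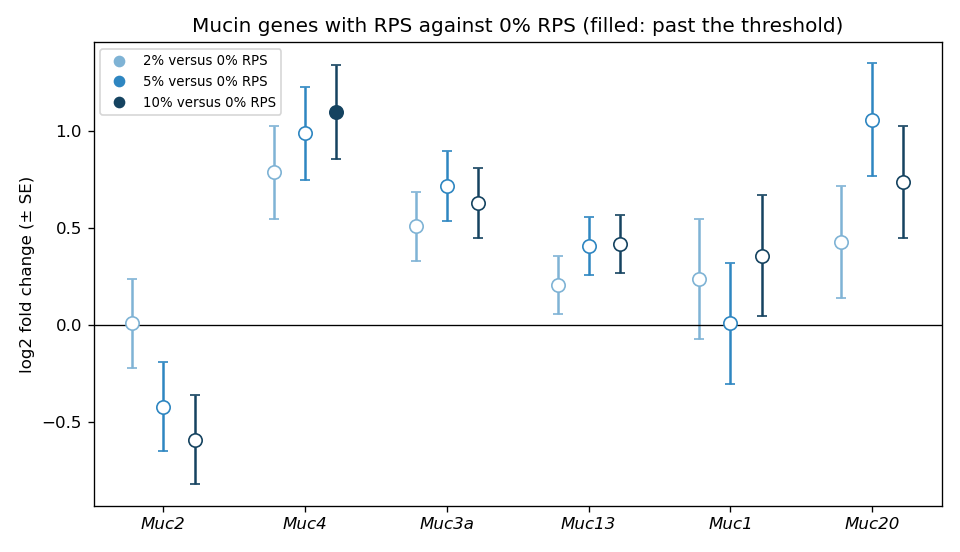
The log2 fold change of each mucin gene with 2, 5, and 10% RPS against 0% RPS, with its standard error from the fit of all 20 mice; a filled point is past the threshold. Only Muc4 with 10% RPS is filled (1.10), and Muc2 lies below 0 with 5 and 10% RPS.

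Against the background of all genes, the counts were as follows. With 10% RPS, 1 of the 6 genes was past the threshold, where 1.04% of the 15348 tested genes were. With 5% RPS none of the 6 was (0.195% of all genes), and with 2% RPS none was (0.0% of all genes, 0 genes in edgeR and 5 in DESeq2). At an unadjusted p under 0.05, it was 5 of 6 with 10% RPS against 19.5% of all genes, 4 of 6 with 5% RPS against 13.3%, and 2 of 6 with 2% RPS against 5.77%. With no overlap between the mice of 2 diets, it was 0 of 6 with 10% RPS (4.88% of all genes), 2 of 6 with 5% RPS (3.57%), and 0 of 6 with 2% RPS (1.09%). The median log2 fold change of the 6 genes was 0.53 with 10%, 0.57 with 5%, and 0.34 with 2% RPS, and that of all genes was 0.004, -0.002, and 0.003. These comparisons share the same 5 control mice, and some of the 6 genes vary together between mice, so the counts are not independent. The 6 genes were also chosen with earlier results of these data known. The counts therefore describe these genes and are no test of mucins as a class. Of the 7 other genes listed as mucins, 1 had an unadjusted p under 0.05 with 10% RPS.

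The RPS diets were also compared with each other. Between 10 and 5% RPS, 10 and 2% RPS, and 5 and 2% RPS, none of the 6 genes was past the threshold, as for all genes (0.0%). At an unadjusted p under 0.05 there was 0 of 6 for 10 against 5% RPS (2.79% of all genes), 1 of 6 for 10 against 2% RPS (4.69%), and 1 of 6 for 5 against 2% RPS (3.39%). Those were Muc2, with a log2 fold change of -0.59 (SE 0.23, unadjusted p 0.0182) between 10 and 2% RPS, and Muc20, with 0.63 (SE 0.28, unadjusted p 0.0387) between 5 and 2% RPS. For Muc4 the log2 difference was 0.12 (SE 0.23) between 10 and 5% RPS and 0.32 (SE 0.23) between 10 and 2% RPS. Fitted as a straight line over dose, none of the 6 genes passed an adjusted p of 0.05 (1.11% of all genes did), and 5 of 6 had an unadjusted p under 0.05 (18.8% of all genes). The slope per percentage point was 0.09 (SE 0.027, adjusted p 0.088) for Muc4 and -0.065 (SE 0.021, adjusted p 0.111) for Muc2 on the log2 scale (edgeR). DESeq2 called both slopes, with adjusted p-values of 0.0147 and 0.0443, and edgeR called Muc4 without mouse 3 on 2% RPS (0.0389) or without mouse 4 on 10% RPS (0.0221).

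Markers of other tissue components were summed in each mouse. All 6 genes of the smooth muscle list had estimates above 0 with 10% RPS, and 1 passed the threshold, Actg2, an actin of gut muscle (log2 fold change 1.28, adjusted p 0.0358; edgeR). Of all 15348 tested genes, 7808 had estimates above 0 and 1.04% were past the threshold. Actg2 was also past it with 5% RPS (1.53, adjusted p 0.0425). Their sum was 2441 to 5668 CPM with 0% RPS, 4154 to 9680 CPM with 5% RPS, and 3993 to 6694 CPM with 10% RPS. The fibroblast list summed to 403 to 559 CPM with 0% RPS and 502 to 788 CPM with 10% RPS, and 5 of its 6 genes had estimates above 0, with none past the threshold. The epithelial list summed to 13015 to 16810 CPM with 0% RPS and 11575 to 15927 CPM with 10% RPS, and 0 of its 9 genes had an estimate above 0. The list of B and plasma cells summed to 55.4 to 446 CPM with 0% RPS and 271 to 491 CPM with 10% RPS. The 9 genes of absorptive colonocytes summed to 35272 to 40112 CPM with 0% RPS and 24390 to 36891 CPM with 10% RPS. Most of that sum was Car1, with a mean of 25146 CPM with 0% RPS, where the mean of the list was 37826 CPM. Car1 had an estimate of -0.43 with 10% RPS (adjusted p 0.0956; edgeR). In that list 5 estimates were above 0 and 3 of 9 genes were past the threshold, where 7808 of 15348 and 1.04% of all tested genes were. Saa1 (1.60) and Slc26a3, a chloride exchanger (0.61, adjusted p 0.0487), rose, and Cyp2c55, a cytochrome P450, fell (-0.66, adjusted p 0.00818). No marker of these 5 lists was at 0 in every mouse. A list of Paneth cell and small intestine genes summed to 83.0 to 125 CPM with 0% RPS and 65.4 to 105 CPM with 10% RPS. Of its 6 tested genes, 1 had an estimate above 0, and 1 passed the threshold, where 7808 of 15348 and 1.04% of all tested genes did. That was Alpi, which fell (-0.76, adjusted p 0.0275; edgeR). The log2 sum of that list had an r of -0.50 with Muc4 and 0.60 with Muc2 over the 20 mice. Over the 20 mice, log2 CPM of Muc4 had a Pearson r of 0.62 with the log2 sum of the smooth muscle list, 0.81 with that of the fibroblast list, -0.29 with that of the epithelial list, and -0.45 with that of the absorptive colonocyte list, and Muc2 had -0.31, -0.24, 0.41, and 0.34. Car1 weighs most in the r of the absorptive colonocyte list, while Saa1 of the same list had an r of 0.914 with Muc4 on its own. These values of r are descriptions of shared libraries, and the part of these tissue components in the mucin values was not tested.

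With the mean of the smooth muscle list as a covariate, which was added after the values were seen, the estimate with 10% RPS was 0.79 for Muc4 (adjusted p 0.182), 0.24 for Muc3a, 0.12 for Muc13, and -0.70 for Muc2, and none was called, in a fit that called 0 of all tested genes. With the epithelial list as a covariate, that of Muc4 was 1.18 (adjusted p 0.16), and none was called, in a fit that called only 2 of all tested genes. Divided by the summed epithelial list, the log2 difference with 10% RPS was 1.25 for Muc4, 0.81 for Muc3a, 0.60 for Muc13, and -0.38 for Muc2. Without the 3 libraries of high mitochondrial share, the estimate with 10% RPS was 1.13 for Muc4 (adjusted p 0.0326) and 0.71 for Muc3a (adjusted p 0.0184), and both passed the threshold (edgeR). In that fit Muc2 was at -0.54 with 10% RPS (adjusted p 0.0564), -0.61 with 5% RPS (adjusted p 0.102), and -0.20 with 2% RPS (adjusted p 0.781).

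Values of pairs of mucin genes were compared across mice. Over the 20 mice, the Pearson r of log2 CPM was 0.90 between Muc4 and Muc13, 0.87 between Muc3a and Muc13, and 0.86 between Muc3a and Muc4, with Spearman's rho of 0.91, 0.85, and 0.86. Within diets, after the diet means were removed, r was 0.88, 0.82, and 0.73, so these genes also varied together among mice on the same diet. With any 1 mouse left out, r stayed between 0.83 and 0.92 for these 3 pairs. Muc17 had r between 0.75 and 0.82 with the same 3 genes. Muc12, which lies between Muc17 and Muc3a on chromosome 5, had r of 0.46 with Muc3a and 0.49 with Muc17. Muc2 had r of -0.19 with Muc4, -0.16 with Muc13, and -0.09 with Muc3a over all mice, and 0.29, 0.23, and 0.41 within diets. With 1 mouse left out, these 3 values over all mice ranged from -0.36 (without mouse 3 on 2% RPS) to -0.13, from -0.32 (without mouse 4 on 5% RPS) to -0.06, and from -0.34 (without mouse 3 on 2% RPS) to 0.0, each highest without mouse 3 on 10% RPS. Without both mouse 3 on 2% RPS and mouse 4 on 5% RPS, which were farthest from the median of Muc2 and have libraries of high mitochondrial share, r was -0.55 with Muc4, -0.54 with Muc13, and -0.67 with Muc3a. Muc20 had r of 0.41 with Muc4 over all mice and -0.14 within diets. Omitting mouse 3 on 0% RPS gave the lowest value of any such omission, 0.24, and omitting mouse 3 on 5% RPS gave the highest, 0.60. It was 0.16 without mice 3 and 4 on 0% RPS, the farthest from the median of Muc4. All points share their libraries and scaling, and no test was made of these values.

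**Figure D4:**
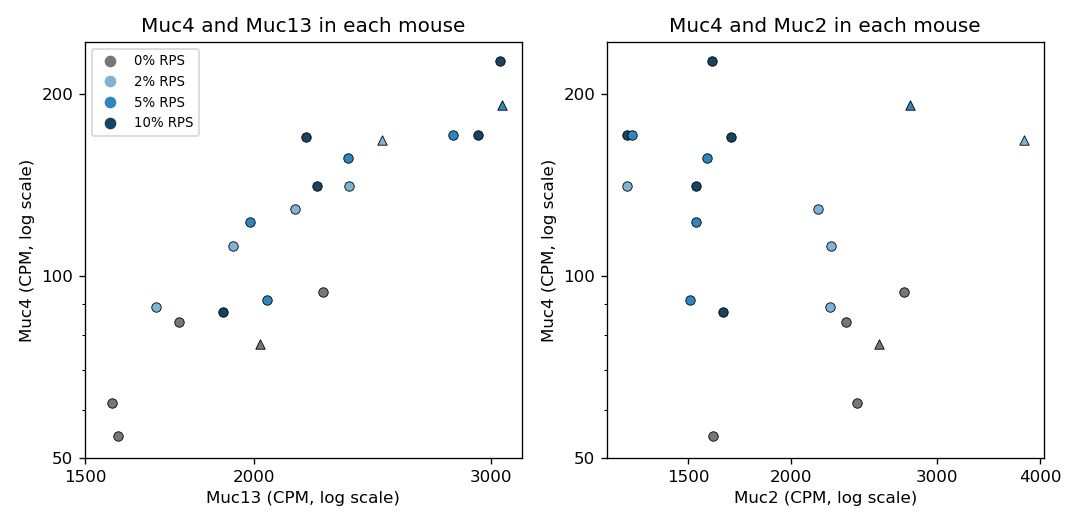
Muc4 against Muc13 (left) and against Muc2 (right) in CPM on log axes, with 1 point per mouse (20 mice), colored by diet; triangles are the 3 libraries of highest mitochondrial share. For Muc4 and Muc13 r is 0.90, and for Muc4 and Muc2 it is -0.19 over all mice, -0.55 without the 2 mice farthest from the median of Muc2, and 0.29 within diets.

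The genes whose log2 CPM was most like that of each mucin over the 20 mice differed between mucins. For Muc2 they were Ano7 (r 0.92), Atoh1 (r 0.877), the transcription factor required for secretory cells of the gut, and Bmp7 (r 0.869), a growth factor. For Muc4 they were Saa1 (r 0.914), an acute phase protein made by epithelial cells of the large intestine, Mbd1 (r 0.905), and Muc13 (r 0.896). For Muc13 they were Car4 (r 0.897), a carbonic anhydrase of surface colonocytes, Muc4, and Col1a1 (r 0.882), a collagen of fibroblasts. For Muc3a they were Map4 (r 0.912), which binds microtubules, Col1a1 (r 0.903), and Tnfrsf25 (r 0.897), a death domain receptor. For the low genes Muc1 and Muc20 they were Rflna, Crim1, and Slc38a10 (r 0.778 to 0.79) and Catsperg2, Zfp72, and Oas1h (r 0.789 to 0.857). Of these, Saa1 passed the threshold with 5 and 10% RPS, with log2 fold changes of 1.62 (SE 0.32, adjusted p 0.0426) and 1.60 (SE 0.32, adjusted p 0.0251), and Tnfrsf25 with 10% RPS, with 0.70 (SE 0.16, adjusted p 0.031; edgeR).

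No other mucin gene in the table was past the threshold at any dose in edgeR or DESeq2. At an unadjusted p under 0.05 there was 1 of 7 with 10% RPS (19.5% of all genes), 0 of 7 with 5% RPS (13.3%), and 0 of 7 with 2% RPS (5.77%). Muc17 was at 3572 to 4520 CPM with 0% RPS and at 3691 to 6627 CPM with 10% RPS, and its log2 fold change was 0.31 (SE 0.16), 0.30 (SE 0.16), and 0.21 (SE 0.16) in order of dose. Muc12 had 0.31 (SE 0.19), 0.34 (SE 0.19), and 0.35 (SE 0.19), and Muc16 had 0.20 (SE 0.24), 0.35 (SE 0.25), and 0.34 (SE 0.25). Muc6, a gel-forming mucin of the stomach whose gene lies 34941 bases from Muc2 on the opposite strand, was at 0.243 to 1.03 CPM over all mice, far below Muc2. Emcn, the mucin of blood vessel lining cells, had the lowest unadjusted p of these genes, with a log2 fold change of -0.45 (SE 0.13, adjusted p 0.0706) with 10% RPS. Mcam, a cell adhesion molecule that was kept in the list of mucins, had 0.16 (SE 0.14), and Cd164 had -0.05 (SE 0.10).

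Genes whose products act with MUC2 in mucus or mark goblet cells were taken as a list. Of 14 genes of mucus partners and goblet cells, 1 fell with 10% RPS, none rose, and 13 were not past the threshold (1.04% of all genes were past it). At an unadjusted p under 0.05, 0 were higher and 6 lower (19.5% of all genes in either direction), and 10 of the 14 estimates were below 0, with a median of -0.44 against 0.004 for all genes. The one that fell was Zg16, a lectin of the mucus layer, with a log2 fold change of -0.84 (SE 0.16, adjusted p 0.0251, edgeR). Zg16 was at 2011 to 3130 CPM with 0% RPS and at 1130 to 1754 CPM with 10% RPS, without overlap. Spink4, a small protein of goblet cells, had an adjusted p of 0.0479 with 10% RPS, but its log2 fold change of -0.56 was smaller than the fold change asked for. For Zg16 the log2 fold change was -0.71 (SE 0.16, adjusted p 0.061) with 5% RPS and -0.44 (SE 0.16, adjusted p 0.815) with 2% RPS. The list summed to 9079 to 11280 CPM with 0% RPS and 7342 to 8669 CPM with 10% RPS, and the log2 sum had an r of 0.77 with Muc2 over the 20 mice. With 5% RPS the median of the list was -0.29, and with 2% RPS it was -0.10, and none of the 14 passed. With 5% RPS, 2 were higher and 6 lower at an unadjusted p under 0.05 (13.3% of all genes), and 0 were higher and 1 lower with 2% RPS (5.77%). The higher ones were Ang4, an antimicrobial ribonuclease, with an estimate of 2.55 (SE 0.78, adjusted p 0.141), and Itln1, a lectin, with 1.57 (SE 0.55, adjusted p 0.185; edgeR). Ang4 was at 3.30 to 43.4 CPM with 0% RPS and 42.5 to 189 CPM with 5% RPS, and Itln1 was at 0.269 to 0.717 and 0.274 to 4.0 CPM, so both overlapped. Ang4 and Itln1 have close relatives in the genome with which reads could be shared.

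Enzymes that build the sugar chains of mucins were measured next. Of 23 tested O-glycosylation enzymes, none passed with 10% RPS (1.04% of all genes did) or 2% RPS (0.0%), and 1 fell with 5% RPS (0.195%). With 10% RPS, 14 of the 23 estimates were below 0, with a median of -0.02, and 2 were higher and 7 lower at an unadjusted p under 0.05 (19.5% of all genes in either direction). With 5% RPS, 17 of the 23 were below 0, with a median of -0.12, and 0 were higher and 6 lower at that p (13.3% of all genes). The one that fell was B3galt5, a galactosyltransferase, whose estimate was -2.68 (SE 0.51, adjusted p 0.0425) with 5% RPS (edgeR). B3galt5 was at 102 to 229 CPM with 0% RPS, 27.5 to 142 CPM with 2% RPS, 15 to 53.4 CPM with 5% RPS, and 20.5 to 134 CPM with 10% RPS. The groups with 0 and 5% RPS did not overlap, and its estimate with 10% RPS was -1.51 (SE 0.49, adjusted p 0.11).

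Among 15 binding partners and proteases of mucins, 1 rose with 10% RPS (1.04% of all genes were past the threshold) and 14 did not pass, with a median of 0.03. There was 1 higher and 1 lower gene at an unadjusted p under 0.05 (19.5% of all genes). The one that rose was Mep1b, the beta subunit of the metalloprotease meprin, which releases MUC2 from the epithelium, with a log2 fold change of 0.79 (SE 0.19, adjusted p 0.0407, edgeR). Mep1b was at 86.3 to 121 CPM with 0% RPS and at 136 to 250 CPM with 10% RPS, without overlap. Of 18 tested regulators of mucin genes, none passed with any dose in edgeR, and the median with 10% RPS was -0.14. At an unadjusted p under 0.05, 1 regulator was higher and 4 were lower with 10% RPS (19.5% of all genes), 1 was lower with 5% RPS (13.3%), and 2 were higher with 2% RPS (5.77%). The most abundant were Hnf4a, a nuclear receptor of the gut epithelium, with a log2 fold change of -0.22 (SE 0.08, adjusted p 0.129), and Klf4, a factor of goblet and surface cells, with -0.11 (SE 0.12, adjusted p 0.639).

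**Figure D5:**
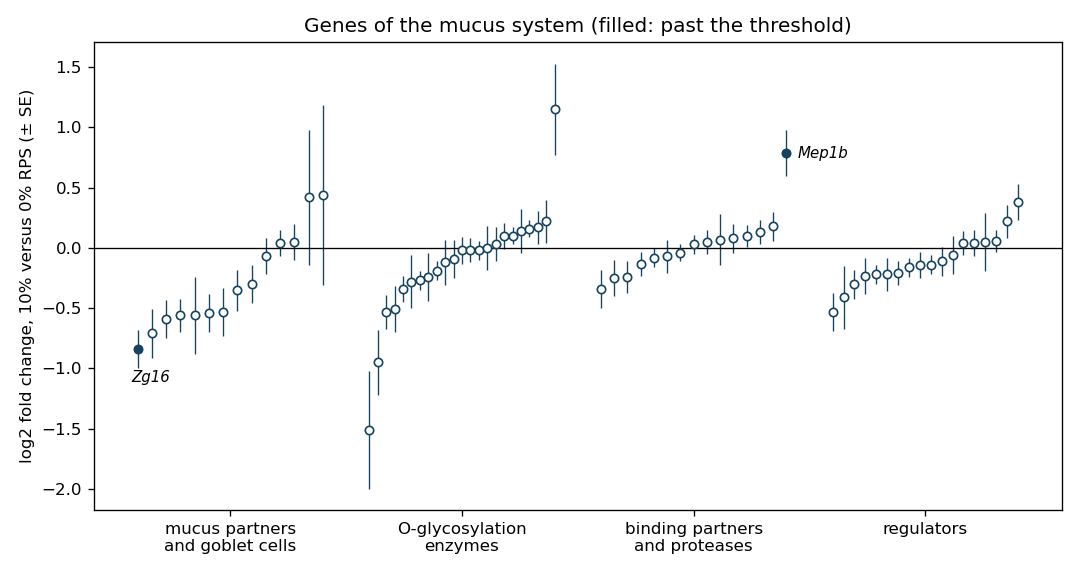
The log2 fold change with 10 against 0% RPS of the tested genes of 4 lists of the mucus system, with standard errors from the fit of all 20 mice; filled points are past the threshold. Zg16 (-0.84) and Mep1b (0.79) are the filled points, and 10 of the 14 genes of mucus partners and goblet cells lie below 0.

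Sequence before the starts of canonical transcripts was searched for motifs of such regulators, since Muc4 and Muc13 varied together. The 160 bases before the start of the canonical transcript are shown 5′ to 3′ along each gene, from GRCm39 with GENCODE M39 starts, with motif matches in capitals. For Muc13 that start lies inside the gene as placed above, so its window is not upstream of the whole gene.
Muc4 (chr16:32554855-32555014, plus strand): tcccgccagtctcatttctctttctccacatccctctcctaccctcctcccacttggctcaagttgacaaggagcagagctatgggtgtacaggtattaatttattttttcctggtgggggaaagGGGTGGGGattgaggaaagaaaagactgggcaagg
Muc13 (chr16:33614577-33614736, plus strand): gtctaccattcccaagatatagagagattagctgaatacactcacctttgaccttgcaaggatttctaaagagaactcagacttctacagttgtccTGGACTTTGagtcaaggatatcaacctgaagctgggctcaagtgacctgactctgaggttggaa
Muc2 (chr7:141276423-141276582, plus strand): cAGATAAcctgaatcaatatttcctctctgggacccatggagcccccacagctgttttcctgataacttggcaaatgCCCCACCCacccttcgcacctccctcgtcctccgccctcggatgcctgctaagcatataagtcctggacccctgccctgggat
The letters searched on both strands of 250 bases were CAAAGTCCA for HNF4, TTTATG for CDX, TTCNNNGAA for STAT, the STAT6 form of the same motif, which has 1 more N, TGTTTAC for FOXA, CCCCNCCC for KLF and SP, and AGATAA for GATA. Of the 15336 promoters searched, 0.391% held the HNF4 letters, 7.87% CDX, 6.68% STAT, 5.16% STAT6, 2.39% FOXA, 38.5% KLF and SP, and 7.75% GATA. Muc13 held 1 HNF4 match on the reverse strand, 64 to 56 bases before its start, and Muc4 held 1 KLF and SP match on the reverse strand, 35 to 28 bases before its start. Muc2 held 1 KLF and SP match and 2 GATA matches, one of them outside the bases shown. Muc1 held 2 KLF and SP matches, and Muc20 held 1 FOXA and 1 KLF and SP match. The window before the annotated start of Muc3a held none. That annotated gene has only 1887 exon bases, and whether transcription begins at its start was not tested. The window of Muc3a is therefore no result about its promoter. Muc4 and Muc13 thus shared none of these letters in this window. A match is a description of letters, and no match says nothing about the factor.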

How the data were processed

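The deposited table holds RNASeq counts of the cecum of 20 mice, 5 on each diet. The authors made stranded mRNA libraries, sequenced single-end reads of 50 bases, and deposited raw counts per gene and mouse (build GRCm39 per the labels). The counting of multi-mapping reads and its strand setting are not given in the sources used here. Mice are numbered by the order of their label numbers, which differ between diets, so that nothing is paired. The labels name no batch.

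Of 19887 identifiers, 19827 were found in GENCODE M39 and 60 were not. Genes passing edgeR's filterByExpr (minimum count 10, minimum total 15) numbered 15348 and held 99.98% of counts. TMM factors were 0.916 to 1.07. A robust quasi-likelihood model of the 4 diets was fitted to all mice (R 4.3.3, edgeR 4.0.16, limma 3.58.1), and the trend was fitted separately without a fold threshold. It was tested on simulated data. DESeq2, which the paper used, was an alternative here (version 1.42.0). Standard errors came from the fold change and F. Log2 CPM used a prior count of 2. Exact permutation tests (scipy 1.17.1) ran over 252 assignments. The mice of 1 diet differed by at least 12.3 in chi-square per degree of freedom (40 pairs), so none was a repeated library.

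The genes named are the 6 mucins, the 3 genes most correlated with each, the other mucins, and, from each list of mucin partners, enzymes, and regulators, genes past the threshold in a comparison with 0% RPS, otherwise the 2 most abundant. Marker lists of tissue components are given by their summed level. Outside this rule, Actg2, Slc26a3, Cyp2c55, Car1, Alpi, Spink4, Ang4, Itln1, Epcam, Cdh1, and Vil1 were named after their values were seen. Members and lists were chosen with earlier results of these data known. Alternatives were DESeq2's size factors and Wald test, no or a stricter filter on low counts, the non-robust model, covariates, a prior count of 0.5, immunoglobulin genes left out, fits of only 2 diets, dose ranks, and leaving out single mice. The smooth muscle covariate, the omission of 3 libraries, division by the epithelial list, and the absence of a fold threshold were added after seeing the data.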

Additional observations from a re-analysis of the deposited data

Results flagged for a closer look

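In the 52 groups of 5 values formed by 13 genes listed as mucins and 4 diets, 4 values lay far from the rest of their group by Dixon's test. In that test chance flags about 1 in 20 groups, but these groups use the same mice again and are not independent. Muc2 was at 2785 CPM in mouse 4 on 5% RPS, and at 1284 to 1581 CPM in the other mice on that diet. Cd164, a sialomucin of many cell types, was at 171 CPM in mouse 5 on 0% RPS (213 to 229 in the others), at 161 CPM in mouse 3 on 2% RPS (214 to 226), and at 162 CPM in mouse 4 on 5% RPS (205 to 219). All 4 values come from the 3 libraries with the highest share of mitochondrial counts, whose part in them was not tested.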

How the results depend on the processing

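Muc4 with 10% RPS kept its direction in all 20 alternative fits and was past the threshold in 11 of them. Mucin genes past the threshold with 10% RPS (1 as reported) numbered 2 with DESeq2's Wald test and without the 3 libraries of high mitochondrial share (Muc4 and Muc3a in both), and 0 with the epithelial covariate, the smooth muscle covariate, or only 2 diets in the fit. They numbered 0 to 2 with each mouse left out. With 5% RPS (0 as reported) they numbered 2 with DESeq2 and 0 to 1 with each mouse left out. For the trend (0 as reported) they numbered 2 with DESeq2, 2 without the 3 libraries, 1 with the rank of the dose, and 0 to 1 with each mouse left out. All genes past the threshold with 10% RPS (160 as reported) numbered 317 without the 3 libraries, 369 with DESeq2, 285 with no fold change threshold, 98 with only 2 diets, 2 with the epithelial covariate, and 0 with the smooth muscle covariate, and between 14 (mouse 3 on 10% RPS left out) and 344 (mouse 2 on 0% RPS left out). With 5% RPS (30 as reported) they numbered 1 without the 3 libraries, 241 with DESeq2, 65 with only 2 diets, and 0 with either covariate, and between 0 (mouse 5 on 5% RPS left out) and 114 (mouse 1 on 5% RPS left out). With 2% RPS (0 as reported) DESeq2 called 5. For the trend (170 as reported) they numbered 888 without the 3 libraries, 710 with DESeq2, 539 with the rank of the dose, 103 with no filter on low counts, 0 with either covariate, and between 0 (mouse 1 on 10% RPS left out) and 674 (mouse 3 on 2% RPS left out). Estimates near 0 changed sign. Muc1 with 5% RPS was at -0.01 with the epithelial covariate, -0.43 with the smooth muscle covariate, -0.14 without the 3 libraries, and -0.20 to 0.17 with each mouse left out, and with 2% RPS at -0.02 to 0.40. Muc2 with 2% RPS was at -0.04 with the smooth muscle covariate, -0.20 without the 3 libraries, -0.02 relative to the epithelial list, and -0.24 to 0.17 with each mouse left out. The correlation of Muc1 and Muc20 ranged from -0.21 to 0.20 with each mouse left out. Muc20 had under 10 counts in some mice, so the stricter filter gave no value for it. Levels per diet moved by less than 1 SD with DESeq2's size factors and with each mouse left out (144 values). No setting moved the median of all genes by more than 0.02 on the log2 scale. The causes of these differences were not tested. No paired analysis was possible because mouse numbers differ between diets. Muc1 had at most 46 and Muc20 at most 38 counts per mouse.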

Other observations

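The ratio of Muc4 to Muc2, formed after the values of both genes were seen, differed between mice on 0% RPS and all others. Muc4 was at 2.57 to 3.61% of Muc2 (CPM) in the 5 mice on 0% RPS, with a median of 3.39%. It was at 4.0 to 11.2% with 2% RPS, 6.05 to 13.3% with 5% RPS, and 5.28 to 14.2% with 10% RPS, and the medians were 5.04, 8.03, and 10.1%. No mouse on RPS fell within the range of the mice on 0% RPS. The ratio of Muc13 to Muc2 was 65.4 to 98.8% with 0% RPS and overlapped that with 2% RPS (65.2 to 186%), but not those with 5% RPS (110 to 219%) and 10% RPS (115 to 232%). Since the pairs were picked for their patterns, these ratios are descriptions with no test.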
